A study of Homo sapiens with 5 samples.

Results

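The peaks described here lay at 8 genes of lactate production, lactate transport and pH control: LDHA, LDHB, SLC16A1, SLC16A3, BSG, CA9, CA12 and PDK1. A peak was taken when any of its bases overlapped the annotated gene on hg19 or the 50 kb beyond either end, with gene positions from the GENCODE annotation on GRCh37. This rule gave 50 of the 29781 peaks in the 4 deposited lists. Nrf2 had 3 of its 3204 control peaks and 4 of its 7743 iAs peaks at these genes, and HIF1α had 12 of 6008 control peaks and 31 of 12826 iAs peaks.

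The lists came from chromatin immunoprecipitation and sequencing (ChIP-seq) of BEAS-2B, an immortalized line of human bronchial epithelial cells. The cells were starved of serum overnight and were then left untreated (control) or given 1 µM inorganic arsenic (iAs) for 6 h. Antibodies against Nrf2 and HIF1α were each used once per condition, so there was 1 library per group, no replicate error and no test. With 1 library per group, a difference between the conditions cannot be told apart from a difference between libraries. The lists hold the start and end of each peak but no height, and the read depth is unknown. Presence, position and width in base pairs (bp) were therefore the only readouts.

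Cells that rely on glycolysis turn pyruvate into lactate through lactate dehydrogenase and export lactate together with a proton through monocarboxylate carriers. Carbonic anhydrases at the cell surface interconvert carbon dioxide and bicarbonate and so buffer the exported acid, while pyruvate dehydrogenase kinases restrain the entry of pyruvate into the citric acid cycle. HIF1α is a transcription factor stabilized by low oxygen that pairs with ARNT at hypoxia response elements, and Nrf2 is a stress-activated factor that pairs with small Maf proteins at antioxidant response elements.

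The sequences below are hg19 reference sequence around matches to the core of the hypoxia response element, ACGTG, searched on both strands. They are shown because they mark where the HIF1α peaks of each gene lay relative to this core. Capitals mark the core, each line reads 5′ to 3′ on the strand given, and distances run from the transcription start site (TSS) of the canonical transcript, negative upstream. The first 5 lay inside HIF1α peaks. They were at -71 bp for LDHA, -195 bp for SLC16A1, 2081 bp for SLC16A3, -190 bp for BSG and -6 bp for PDK1. The BSG match lay in a peak with iAs only, and the others in peaks of both conditions. Those of SLC16A1 and BSG were part of the palindrome CACGTG, which reads the same on both strands. A match describes letters alone and does not show which factor bound them. The CA12 match, at 8798 bp in intron 2, lay inside peaks of both factors with iAs. The last 2, at -66 bp of SLC16A3 and -16 bp of CA9, lay in no peak of any library.
LDHA (chr11:18416025-18416053, minus strand): gggggccggcggACGTGcgggaacccacg
SLC16A1 (chr1:113498999-113499027, plus strand): cccctccccgccACGTGaccggcgtccca
SLC16A3 intron 1 (chr17:80188985-80189013, minus strand): gggacgtgggggACGTGaccgcgccatgg
BSG (chr19:572392-572420, plus strand): caacgccgggtcACGTGcgccgccgcccg
PDK1 (chr2:173420798-173420826, minus strand): ctgccgagtggtACGTGagggacgtggcg
CA12 intron 2 (chr15:63665233-63665261, minus strand): ctcttcatcatgACGTGgtgttcgccaag
SLC16A3 promoter, no peak (chr17:80186838-80186866, plus strand): cgccaggcggtgACGTGcgcgggggacgt
CA9 promoter, no peak (chr9:35673895-35673923, minus strand): tgtacgggctgtACGTGcattggaaacga

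The Nrf2 peaks at these genes are represented by the longer form of the antioxidant response element core, TGACTCAGC, which every one of the 7 Nrf2 peaks held somewhere in its interval. This motif contains TGACTCA, the reverse complement of the AP-1 element TGAGTCA, so each match is also an AP-1 match. Capitals mark the 9 bases of the core. The distances from the TSS were -11215 bp for SLC16A3, 53920 bp for CA9, 9308 and 9402 bp for CA12 and -3160 bp for PDK1.
SLC16A3 (chr17:80175689-80175717, minus strand): ccgcagccagTGACTCAGCactgagaact
CA9 (chr9:35727831-35727859, minus strand): agggtaggcaTGACTCAGCtcccttatcg
CA12 site 1 (chr15:63664723-63664751, plus strand): ccctggagaaTGACTCAGCagtgtacgtg
CA12 site 2 (chr15:63664629-63664657, plus strand): gtcagcctggTGACTCAGCtatgaggatg
PDK1 (chr2:173417644-173417672, minus strand): ctccagaaacTGACTCAGCataagatgac

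The comparison between conditions asked where each factor was found at these genes with and without iAs. HIF1α peaks lay at 5 of the 8 genes in control cells (LDHA, SLC16A1, SLC16A3, CA9 and PDK1), where 45.5% of all 20162 protein-coding genes had one under the same rule. With iAs they lay at 7 genes, all but LDHB, against 68.6% of all genes. Nrf2 peaks lay at 3 genes in control cells (SLC16A3, CA9 and CA12; 20% of all genes) and at 4 with iAs, PDK1 being the addition (35% of all genes). LDHB was the only member without a peak of any library, as were 24.3% of all genes.

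Peaks close to the gene starts were counted next. In control cells 3 genes (LDHA, SLC16A1 and PDK1) had a HIF1α peak within 1 kb of the canonical TSS, against 16.7% of all genes. With iAs there were 6, the additions being SLC16A3, BSG and CA12, against 42.6% of all genes. Of all genes, 14.8% had such a peak in both conditions, 27.7% with iAs only and 55.6% in neither, the last state being that of LDHB and CA9. No member, and 1.85% of all genes, had such a peak in control cells only. No member had an Nrf2 peak within 1 kb of its canonical TSS in either condition, where 2.32% of all genes had one in control cells and 5.17% with iAs. At least 2 HIF1α iAs peaks lay within 3 kb of the TSS of LDHA and of SLC16A3, and of 11.7% of all genes.

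Because the searched regions also held other genes, the counts were repeated with narrower rules. Within 10 kb of the gene body, Nrf2 had peaks at 2 members in control cells (10.6% of all genes) and 3 with iAs (19.6%), and HIF1α at 4 (29% of all genes) and 7 (54.7%). The next rule kept only peaks whose nearest canonical coding TSS was the gene's own. Nrf2 then had peaks at 1 member, CA12, in control cells (8.99% of all genes). With iAs there were 2, CA12 and PDK1 (17.2%). Under that rule HIF1α had peaks at 4 members in control cells (LDHA, SLC16A1, SLC16A3 and PDK1; 20.8% of all genes) and at 6 with iAs, BSG and CA12 being added (42.9%). Of the 50 peaks, 24 had a member's TSS as the nearest canonical coding start and 26 that of another gene. In all, 6 covered a member's canonical TSS. The Nrf2 peaks at SLC16A3 were assigned to CCDC57 by this rule. In both conditions they covered an annotated, non-canonical start of SLC16A3 at -11.1 kb.

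**Figure D1:**
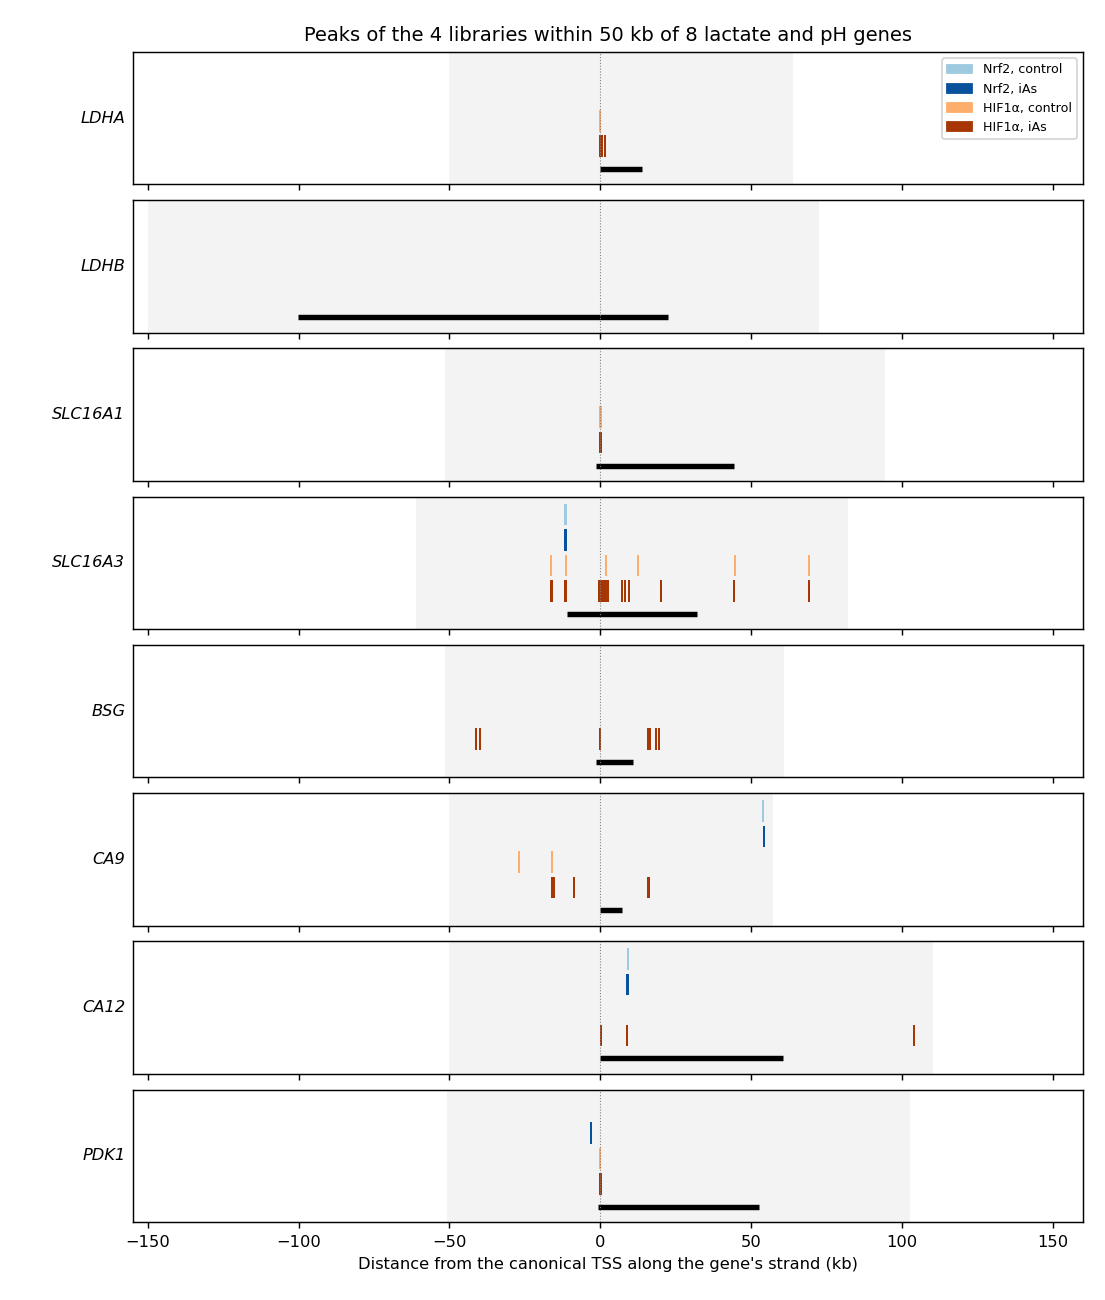
Peaks of each library (coloured bars, 1 row per library) by distance from the canonical TSS in kb along the gene's strand, for the 8 genes; the black bar is the annotated gene body, the grey band the searched region, and narrow peaks are drawn wider than to scale. SLC16A3 carries 12 HIF1α peaks with iAs, LDHB carries none, and the CA9 peaks all lie outside its gene body.

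LDHA encodes the lactate dehydrogenase subunit that favours the conversion of pyruvate to lactate. Its HIF1α peak in control cells, chr11:18415731-18416349, was 619 bp wide, covered the TSS and ranked 145 of 6008 in width. With iAs the peak over the TSS was 812 bp wide (chr11:18415697-18416508) and contained the whole control peak. There were 2 further peaks in intron 1 with iAs, of 404 bp centred at 0.73 kb and of 419 bp centred at 1.47 kb, and neither had a control counterpart. The bases covered by HIF1α peaks at LDHA thus went from 619 to 1635 bp.

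The control peak of LDHA held 5 ACGTG matches, of which 3 lay in the promoter window, the 300 bases made of 250 before and 50 after the TSS. At least 1 match in this window was found for 23.2% of all protein-coding genes. LDHA had no Nrf2 peak, and the nearest in both conditions lay 65.1 kb upstream of the TSS.

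LDHB encodes the subunit that favours the reverse reaction, from lactate to pyruvate. Neither factor had a peak in its gene body or the 50 kb on either side. The nearest HIF1α peaks lay 156 kb downstream of its TSS in both conditions, and were nearest to the TSSs of RECQL in control cells and GOLT1B with iAs. The nearest Nrf2 peak with iAs was -870 kb away. The LDHB promoter window held no ACGTG and 1 match to the related core GCGTG, a description of these letters alone. At least 1 GCGTG was found in this window for 44.9% of all protein-coding genes.

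**Figure D2:**
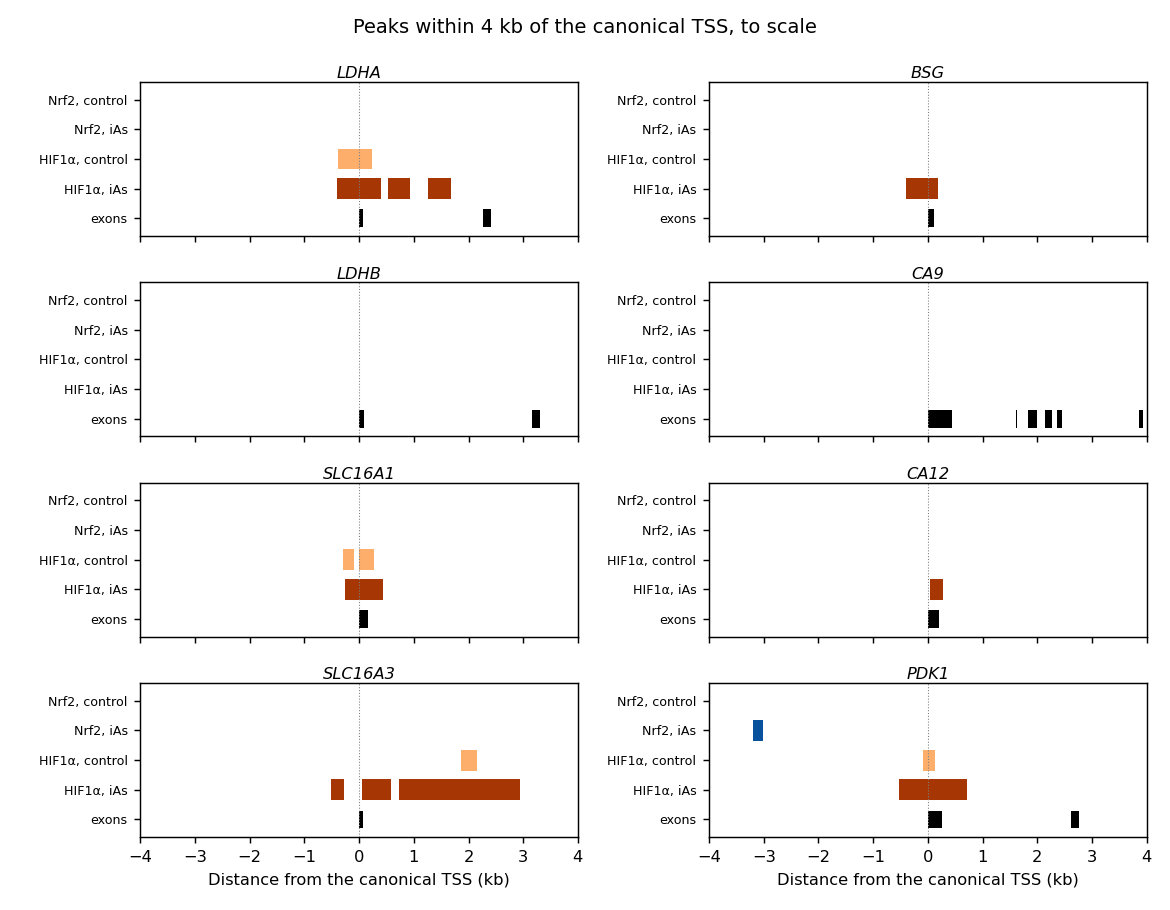
Peaks within 4 kb of the canonical TSS of each gene, drawn to scale, with the exons of the canonical transcript in black; the horizontal axis is the distance from the TSS in kb. HIF1α peaks lie within 1 kb of the start of 6 genes with iAs and of 3 in control cells, SLC16A3 has a further control peak centred at 2.01 kb, and the only Nrf2 peak in these windows is that of PDK1 with iAs.

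SLC16A1 encodes the monocarboxylate carrier MCT1, which moves lactate and a proton in either direction. In control cells HIF1α had 2 peaks there, of 278 bp in exon 1 (5′-UTR, centred at 0.14 kb) and of 215 bp at -0.196 kb. With iAs a single peak of 692 bp, chr1:113498384-113499075, covered the TSS and overlapped both control peaks. No other HIF1α peak and no Nrf2 peak lay within 50 kb, so the gene had peaks at its promoter alone. The iAs peak held 3 ACGTG and 6 GCGTG matches.

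SLC16A3 encodes MCT4, the carrier associated with lactate export from glycolytic cells. It had 20 of the 50 peaks, namely 1 for Nrf2 in each condition, 6 for HIF1α in control cells and 12 with iAs. In HIF1α peaks the covered bases were 1521 bp in control cells, which ranked 306 among all genes, and 6841 bp with iAs, which ranked 36. Only 0.174% of all genes had more covered bases than SLC16A3 in the HIF1α iAs list. Its search window also contained the starts of CCDC57 and CSNK1D. By nearest canonical coding TSS, 7 of the 12 iAs peaks were assigned to SLC16A3.

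The widest of these peaks lay in intron 1 of SLC16A3. In control cells it was 292 bp (chr17:80188787-80189078, centred at 2.01 kb), and with iAs 2215 bp (chr17:80187650-80189864), which ranked 3 of 12826 in its list. The ratio of 7.59 was reached or exceeded by 0.159% of the 3147 HIF1α sites with peaks in both conditions. The iAs peak held 4 ACGTG matches, among them both matches of the control peak, at 2081 and 2090 bp.

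Close to the SLC16A3 start, 2 HIF1α peaks were present with iAs only. These were 250 bp wide at -0.398 kb and 520 bp wide at 0.32 kb. Neither covered the TSS, and the 333 bp between them held both ACGTG matches of the promoter, at -66 and -53 bp. Further iAs-only peaks lay in intron 2 (211 bp), over exon 4 (683 bp, coding), in intron 4 (216 bp) and at 20.1 kb (395 bp). The peaks with iAs thus ran through the body of the canonical transcript, whereas in control cells its only peak was in intron 1.

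The upstream cluster at SLC16A3 was the single place among the 8 genes where all 4 libraries had peaks. The Nrf2 peak spanned 908 bp without iAs (chr17:80175041-80175948, width rank 88 of 3204) and 992 bp with iAs (chr17:80175012-80176003). Both covered the most upstream annotated start of SLC16A3, which lies at -11.1 kb from the canonical TSS. The HIF1α control peak there was 281 bp and lay wholly inside the Nrf2 control peak. With iAs HIF1α had 2 peaks at this place, of 335 and 197 bp, which shared 525 bp with the Nrf2 peak. Neither of these 2 peaks held ACGTG or GCGTG. The TGACTCAGC match at -11215 bp lay inside the HIF1α control peak and the 197 bp HIF1α iAs peak as well as the Nrf2 peaks. Each Nrf2 peak also held 3 ACGTG matches. The nearest canonical coding TSS was that of CCDC57, 4776 bp from the centre of the Nrf2 control peak.

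**Figure D3:**
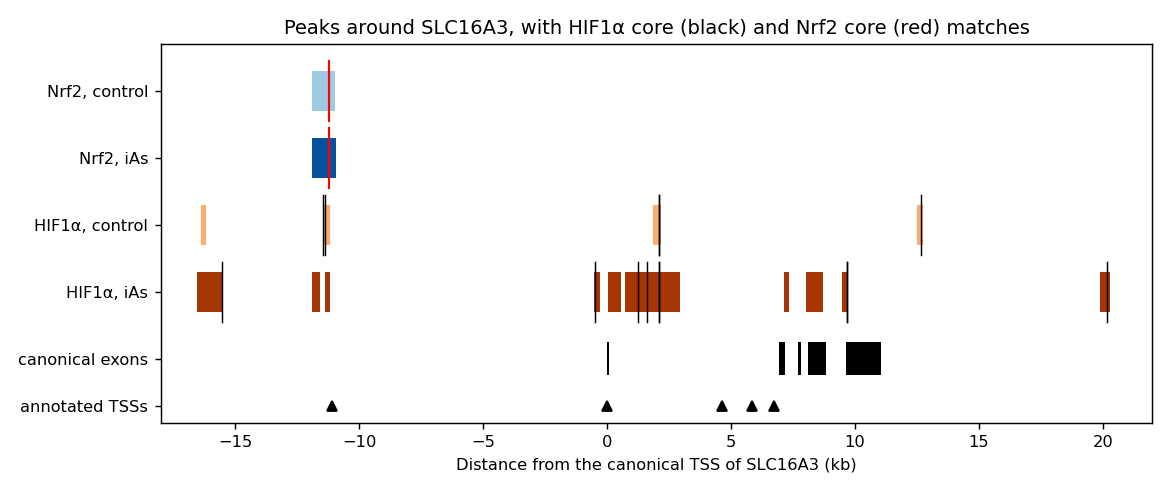
Peaks around SLC16A3 by distance from its canonical TSS in kb, with canonical exons (black boxes) and annotated starts (triangles); vertical ticks mark ACGTG in HIF1α peaks (black) and TGACTCAGC in Nrf2 peaks (red). The Nrf2 peaks of 908 and 992 bp sit over the upstream start, and the widest HIF1α peak, 2215 bp with iAs, fills part of intron 1. Matches to either motif in peaks of the other factor are not drawn.

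The remaining HIF1α peaks in the SLC16A3 window belonged by distance to other genes or lay downstream of the canonical transcript. A peak at the CCDC57 start, -16.3 kb away, went from 198 bp to 1062 bp with iAs. One at the CSNK1D start, 44.6 kb away in control cells, was 234 bp and then 559 bp. A control peak of 235 bp at 12.6 kb had no iAs counterpart. It lay inside the annotated SLC16A3 gene body and was nearest to the SLC16A3 start. A peak at 69.2 kb was 281 bp and then 198 bp.

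BSG encodes basigin, the chaperone that brings MCT1 and MCT4 to the plasma membrane. It had no Nrf2 peak and no HIF1α peak in control cells. With iAs there were 7 HIF1α peaks, of which 1 was nearest to the BSG start. That peak, chr19:572197-572785, was 589 bp wide, covered the canonical TSS and 4 further annotated starts, and held 2 ACGTG and 4 GCGTG matches. The other 6 were nearest to CDC34 (2 peaks, 188 and 258 bp) and HCN2 (4 peaks, 189 to 832 bp).

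CA9 encodes carbonic anhydrase IX, a cell-surface enzyme widely used as a marker of hypoxia. No library had a peak in its gene body or within 1 kb of its TSS. The nearest HIF1α peak was 221 bp wide with iAs, with its edge at -8.56 kb, and its centre lay 63 bp from the start of ARHGEF39. The other HIF1α iAs peaks were 333 and 471 bp near CCDC107 and 1209 bp at the start of TPM2. In control cells HIF1α had a 190 bp peak at -26.9 kb nearest to SIT1, with no iAs counterpart, and a 512 bp peak near CCDC107. By nearest start, none of the CA9 peaks was assigned to CA9.

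The Nrf2 peak in the CA9 window lay 54.0 kb downstream of its TSS, nearest to TLN1, and its width went from 194 bp without iAs to 579 bp with it. It lay close to the edge of the searched region, 46.7 kb past the gene body in both conditions. The closest peaks left out by the 50 kb limit were HIF1α peaks of 600 bp with iAs, 50.9 kb past the CA9 gene body, and of 415 bp in control cells, 51.0 kb past it.

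CA12 encodes carbonic anhydrase XII, another membrane-bound isoform with its active site outside the cell. Nrf2 had a peak in intron 2, 487 bp in control cells (chr15:63664532-63665018, centred at 9.27 kb) and 857 bp with iAs (chr15:63664477-63665333). Both held the 2 TGACTCAGC matches printed above. HIF1α had no control peak, and the nearest was -121 kb away. With iAs it had a 228 bp peak in exon 1 (coding, centred at 0.162 kb), a 190 bp peak in intron 2 and a 325 bp peak at 104 kb, 155 bp from the APH1B start. The intron 2 peak shared 140 bp with the Nrf2 iAs peak, on the side toward the CA12 start.

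PDK1 encodes pyruvate dehydrogenase kinase 1, which inactivates pyruvate dehydrogenase by phosphorylation. HIF1α had a 205 bp peak over its TSS in control cells (chr2:173420737-173420941) and a 1244 bp peak with iAs (chr2:173420294-173421537). This 6.07-fold width was matched or exceeded by 0.572% of HIF1α sites. The control peak held 2 ACGTG matches, at -6 and -15 bp, and the iAs peak held these and 2 more. Nrf2 had no control peak within 50 kb, and with iAs had a 189 bp peak centred at -3.10 kb, which ranked 7185 of 7743 in width. PDK1 was the only member with an Nrf2 iAs peak that overlapped no Nrf2 control peak, as had 25.4% of all genes.

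**Figure D4:**
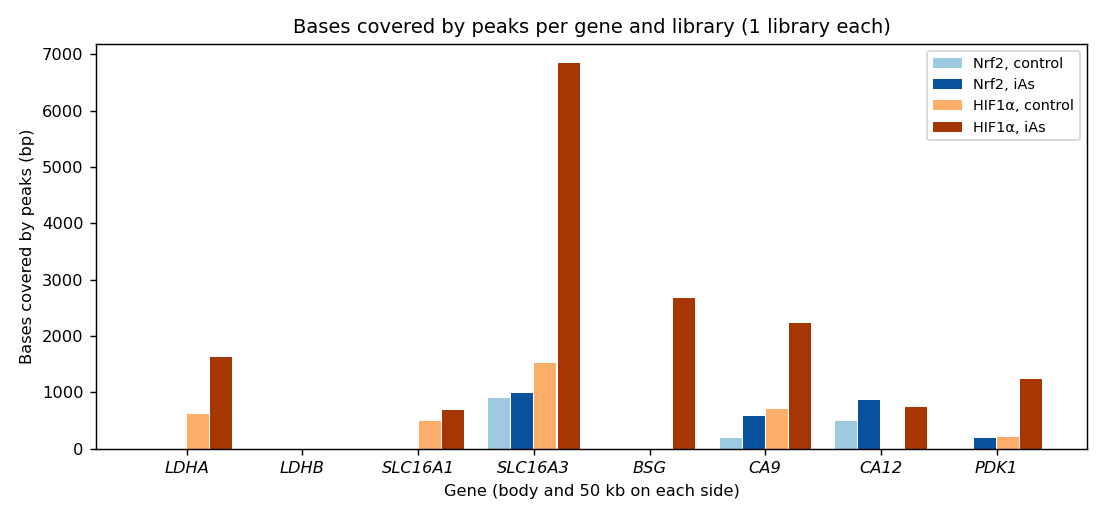
Bases covered by peaks (bp, from 0) in the body and 50 kb on each side of each gene, for the 4 libraries, 1 library each. The HIF1α iAs bar is highest at SLC16A3 (6841 bp), and no bar is present for LDHB or for Nrf2 at LDHA, SLC16A1 and BSG.

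Across the members, the overlap of HIF1α peaks between conditions was counted. Of the 12 control peaks, 10 were overlapped by an iAs peak by at least 1 bp, compared with 53.7% of all 6008. With a reciprocal overlap of 50% only 4 of the 12 were, and among the wider 50% of each list 3 of 6. The share of all control peaks under these rules is not given here, and 53.7% does not apply to them. Of the 31 iAs peaks, 22 overlapped no control peak, compared with 75.2% of all 12826. Such peaks were found at 5 members (LDHA, SLC16A3, BSG, CA9 and CA12), as at 59.6% of all genes. All 3 Nrf2 control peaks were overlapped with iAs, compared with 94.6% of all Nrf2 control peaks.

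Widths at places with peaks in both conditions were set against the same over the genome, where HIF1α sites had a median ratio of iAs to control width of 1.44 and Nrf2 sites 1.63. The 9 HIF1α sites in the members' searched regions ranged from 0.65 to 7.59. Among them, the site at 44.6 kb of SLC16A3 (2.39) lay at the CSNK1D start. The LDHA promoter (1.31) and the SLC16A1 promoter (1.40) were near the median, while SLC16A3 intron 1, PDK1 and the site at -16.3 kb of SLC16A3, at the CCDC57 start (5.36, reached by 1.08% of all HIF1α sites), were far above it. Narrower with iAs were 3 sites, at -11.3 and 69.2 kb of SLC16A3 and at -16.0 kb of CA9, whereas 77.1% of all HIF1α sites were wider. The coding starts nearest to these 3 sites were those of CCDC57, CD7 and CCDC107, not those of SLC16A3 or CA9. These ratios take only the iAs peak that overlapped the control peak. At -11.3 kb of SLC16A3 and -16.0 kb of CA9 a separate iAs peak, of 335 and 471 bp, lay next to it and was not counted. Also not counted were the iAs peaks of 404 and 419 bp downstream of the LDHA promoter peak. With them, the covered bases at LDHA went from 619 to 1635 bp. The 520 bp iAs peak beside SLC16A3 intron 1 was left out in the same way. The 3 Nrf2 sites had ratios of 1.09 at SLC16A3, 1.76 at CA12 and 2.98 at CA9, all wider, as were 91.9% of all Nrf2 sites. Of these, the SLC16A3 site was nearest to the CCDC57 start and the CA9 site to the TLN1 start.

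**Figure D5:**
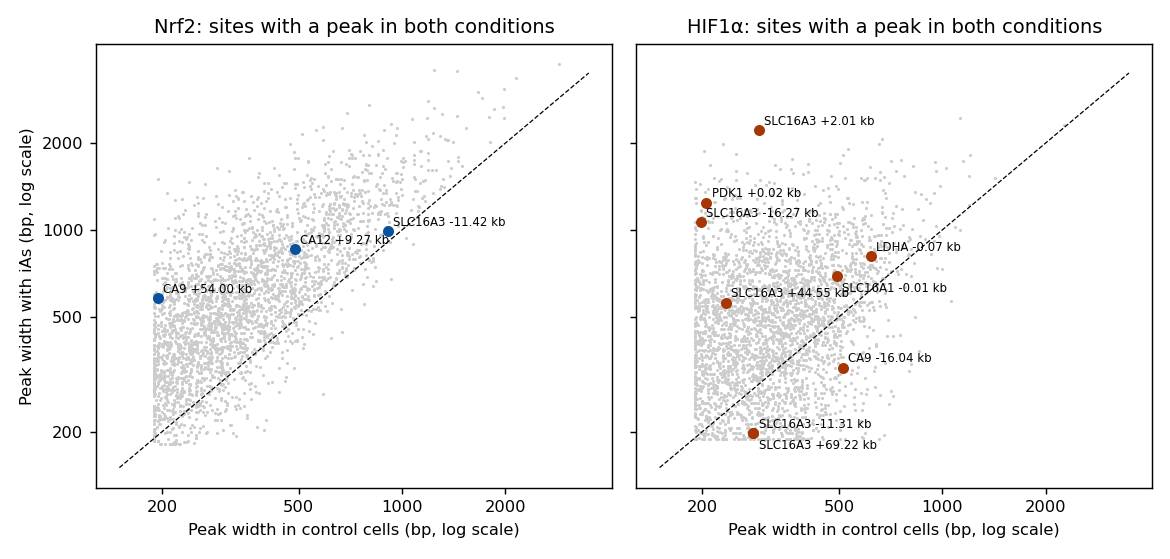
Width of each site in control cells (horizontal, bp, log scale) and with iAs (vertical, bp, log scale) for Nrf2 and HIF1α; grey points are all sites with peaks in both conditions, coloured points the members' sites, labelled by distance from the TSS, and the dashed line is equal width. SLC16A3 intron 1 (292 and 2215 bp) and PDK1 (205 and 1244 bp) lie far above the line. The 3 HIF1α sites below it were each nearest to the start of a gene other than the members.

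Peaks of the 2 factors met at 2 members with iAs, SLC16A3 and CA12, as at 12.7% of all genes. In all, 3 of the 31 HIF1α iAs peaks were overlapped by an Nrf2 iAs peak, and 8.95% of all HIF1α iAs peaks were. At PDK1 both factors had a peak with iAs, but their centres lay at -3.10 and 0.097 kb and the intervals did not overlap.

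Motif counts used a 200 bp window centred on each peak, read on both strands. ACGTG was found in 10 of the 12 HIF1α control windows, where 23.6% (Wilson 95% interval 22.5 to 24.7%) of all control peaks held it, and in 11 of the 31 iAs windows, where 19.5% (18.8 to 20.2%) did. Windows moved by 5 kb held it in 9.20% and 9.50% of cases. Only 6 of the 12 control peaks and 15 of the 31 iAs peaks were nearest to the member's own start. Of those 6, 2 lay side by side at the SLC16A1 promoter. The control windows with ACGTG included peaks nearest to CCDC57, CD7, SIT1 and CCDC107. With the related GCGTG counted as well, 11 of 12 control and 18 of 31 iAs windows had a match, against 47.6% and 52.2% of all peaks. The control peak without either match was the one at the CSNK1D start. Whole intervals held ACGTG in 10 of the 12 control peaks (31.7% of all) and 17 of the 31 iAs peaks (33.9%). With either core the whole-interval counts were 11 of 12 (58.5%) and 24 of 31 (71.6%).

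For Nrf2 the short core TGACNNNGC was found in 2 of 3 control windows and 1 of 4 iAs windows, against 42.4% and 31.5% of all Nrf2 peaks. TGACTCAGC gave the same counts in these windows and was found in all 7 whole intervals, as in 28.96% of all control and 21.7% of all iAs intervals. The 7 intervals lay at only 4 places, since the 3 control intervals lay wholly inside iAs intervals and held the same matches. The wider intervals at SLC16A3, CA9 and CA12 with iAs had their TGACTCAGC matches 168 bp or more from the centre. AAGATGGCG, a core resembling that of YY1, was found in none of the 50 intervals, and in 0.624% of all Nrf2 control, 0.581% of all Nrf2 iAs, 3.38% of all HIF1α control and 3.01% of all HIF1α iAs intervals.

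For the 6 members with peaks in at least 2 libraries, which leaves out LDHB and BSG, the gene most like each in covered bases over the 4 libraries was BNIP3L for LDHA, TEX44 for SLC16A1, ADAM15 for SLC16A3, PDE8A for CA9, CCDC51 for CA12 and BTBD2 for PDK1. The Euclidean distance over these 4 values was lowest for PDK1 and BTBD2 (15.0 bp) and highest for SLC16A3 and ADAM15 (765 bp). BNIP3L had 638 and 1613 bp of HIF1α peaks without and with iAs, beside 619 and 1635 bp for LDHA. Many genes were compared, so a close pair is a description only.

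A list of 28 other genes of lactate, pyruvate and acid-base handling was examined in the same way. HIF1α peaks lay within 1 kb of the canonical TSS at 4 of the 28 in control cells, where 16.7% of all genes had one, and at 12 with iAs, where 42.6% did, so the list was close to the background in both conditions. By group, such a peak with iAs was found at 6 of 7 genes of pyruvate dehydrogenase and its regulators, 2 of 2 of the mitochondrial pyruvate carrier, 2 of 5 other monocarboxylate carriers with embigin, 2 of 6 other acid-base genes, 0 of 4 other lactate dehydrogenases and 0 of 4 lactate and proton receptors, against the same 42.6%. In the first group PDK2, a kinase related to PDK1, had 346 bp without iAs and 835 bp with it, and PDK3 had 429 and 721 bp. DLAT, a subunit of the dehydrogenase complex, had 215 and 597 bp.

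The other genes of that group with a promoter peak had one with iAs only, of 348 bp at PDHA1 and 197 bp at PDHB, both subunits of pyruvate dehydrogenase, and of 307 bp at PDP2, a phosphatase that opposes the kinases. Both genes of the mitochondrial pyruvate carrier had one with iAs only, of 953 bp at MPC1 and 478 bp at MPC2. The same held for SLC16A7, which encodes MCT2 (580 and 241 bp), EMB, which encodes the MCT chaperone embigin (494 bp), and the bicarbonate carrier SLC4A7 (471 bp). Nrf2 had a promoter peak at 1 of the 28 genes in control cells, 189 bp at PDK2, and at none with iAs, where 2.32% and 5.17% of all genes had one.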

How the data were processed

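Nrf2 and HIF1α ChIP-seq peaks were available from BEAS-2B cells, 1 library per antibody and condition. An input library was also sequenced but had no list of its own. The authors deposited the peaks as intervals on hg19, in base positions with neither counts nor heights. The submitters' processing notes name BWA and MACS2 2.1.0. The study's methods name MACS or SICER as callers and state that tags were down-sampled to the smallest sample of a group. Read depth is unknown. The authors' merged list of 21088 regions was not used.

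Intervals were made 1-based and compared with 20162 nuclear protein-coding genes of GENCODE release 44 on GRCh37 (Ensembl canonical TSS, or the gene start for 281 genes without one). An overlap of at least 1 bp counted as shared. A site was a group of overlapping control and iAs peaks of 1 factor, with widths summed per condition. Width rank 1 was the widest. A CACGTG counted as 1 ACGTG match. Wilson intervals cover counting error over peaks of 1 library, not variation between cultures. Python 3.11.15, NumPy 2.4.6, SciPy 1.17.1 and pysam 0.24.0 were used, and the counting steps were tested on simulated data.

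All 8 members were named. Other genes were named where their TSS was nearest to a member's peak, where a gene was most like a member in covered bases, or where a gene of the 28-gene list had a peak within 1 kb of its TSS with iAs. The values of 1 gene of that list are not reported here. The members and lists were chosen with earlier results of these data known. Alternatives were other distances, the wider 50% of each list, merging within 500 bp, other overlap rules, other transcripts and whole-interval motif searches.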

Additional observations from a re-analysis of the deposited data

How the results depend on the processing

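Of the counts recomputed under an alternative, 50 stayed within 1.5 times the value reported and 17 did not. The cause was not tested beyond the construction of each alternative. An alternative chosen after seeing the data counted only peaks whose nearest canonical coding TSS was the member's. It gave 1 Nrf2 control peak at 1 gene, 2 Nrf2 iAs peaks at 2 genes, 6 HIF1α control peaks and 15 HIF1α iAs peaks. The wider 50% of each list left 6 HIF1α control and 16 iAs peaks, 13 iAs peaks without a control peak, 3 control peaks overlapped with iAs and 0 HIF1α iAs peaks overlapped by Nrf2. A reciprocal overlap of 50% gave 2 Nrf2 iAs peaks without a control peak, 4 HIF1α control peaks overlapped with iAs and 0 overlapped by Nrf2. Shares of all peaks under the wider-50% and reciprocal rules are not given here. With any annotated start, 1 gene (SLC16A3) had an Nrf2 peak within 1 kb in control cells and 1 with iAs. The share of all genes with such a peak near any annotated start is not given here. In whole intervals 4 Nrf2 iAs peaks held TGACNNNGC. Within 10 kb of the gene body, CA9 kept no Nrf2 or HIF1α control bases (0 bp) and 1430 bp of HIF1α iAs bases. No paired analysis was possible because each group had 1 library and no test was run. Without heights or depth, a missing interval does not show that a factor was absent.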
